A study of Arabidopsis thaliana with 12 samples.

Results

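The response to salt was followed in seedlings of an Arabidopsis thaliana transformant, SvGRP, carrying a gene taken from the grass S. virginicus, whose product is an RNA-binding protein with a glycine-rich part. Its members were chosen by group: the 3 arrays of SvGRP seedlings on 150 mM NaCl and the 3 of SvGRP seedlings on 0 mM NaCl, which are 6 of the 12 arrays of the series. Seeds germinated over 5 days on MS medium at 1/2 strength. Seedlings then spent 24 h on medium with 0 or 150 mM NaCl and were harvested whole at an age of 6 days. The other 6 arrays hold wild type (Col-0) treated alike. They entered the probe filter, the choice of probe and the estimate of each gene's spread, and so the standard errors and p-values. Their own salt response is given only beside that of SvGRP. The promoter that drives the transgene and the number of independent lines behind the name SvGRP are not given in the sources used here, and the transgene's own RNA is not analysed here. Replicates are numbered 1 to 3 in each group. Nothing says that they were grown separately, so the p-values reflect the spread of these arrays alone, and that spread may be technical.

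Salt draws water from the root's surroundings and loads the tissue with sodium and chloride. The water shortage raises abscisic acid (ABA), a hormone whose PYR/PYL receptors, once occupied, block the clade A protein phosphatases 2C. That frees protein kinases of the SnRK family, which switch on genes through ABF and ABI5 factors. A route that needs less ABA runs through DREB factors. Sodium that enters the root is pumped out, stored in the vacuole or withdrawn from the xylem sap, while growth slows under the hormones auxin, gibberellin and cytokinin. Glycine-rich RNA-binding proteins join an RNA-recognition motif to a glycine-rich tail, and the Arabidopsis members GRP7 and GRP8 are known as clock-controlled regulators of RNA processing.

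Each array is 1-colour (Cy3). A level below is a probe's intensity on the log2 scale after subtracting the 75th percentile of its array, and a change is the level at 150 mM minus that at 0 mM. Levels of different genes are not compared, because probes differ in brightness. On the 6 SvGRP arrays the median signal was 841 to 1013, the 75th percentile 4536 to 5676 and the 20th percentile, the limit used for dim probes, 19.4 to 24.3. Arrays of a group correlated with r of 0.990 to 0.997 across genes, and 3 arrays a group set the precision. The median gene had an SD of 0.06 at 0 mM and 0.13 at 150 mM. The first principal component of the 6 arrays held 88.5% of the variance and separated the NaCl levels. The file names give the slides: SvGRP at 0 mM lay on slide 2 (replicates 1 and 2) and slide 3 (replicate 3), and all SvGRP arrays at 150 mM lay on slide 3. With slide in the fit, the salt response therefore rests on 3 arrays at 150 mM against 1 at 0 mM, and this value stands in parentheses after a change. All 15 measured root and root hair markers and all 10 measured shoot markers were above the dim limit at both NaCl levels.

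Of the SvGRP salt arrays, replicate 1 lay at 71.0 on the first component of all 12 arrays, against 95.3 and 99.4 for replicates 2 and 3. The wild type salt arrays lay at 68.1, 66.8 and 64.7, nearer to replicate 1. Among the 5367 genes called and at least 2-fold changed, the change on replicate 1 was smaller than the mean of replicates 2 and 3 for 4016, with a median ratio of 0.865. It lay on the same side of the 0 mM mean for 5364 of them, a count nearly fixed in advance because replicate 1 helped to choose these genes. The size of the changes below thus includes a spread among the salt arrays that the control arrays do not have.

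**Figure D1:**
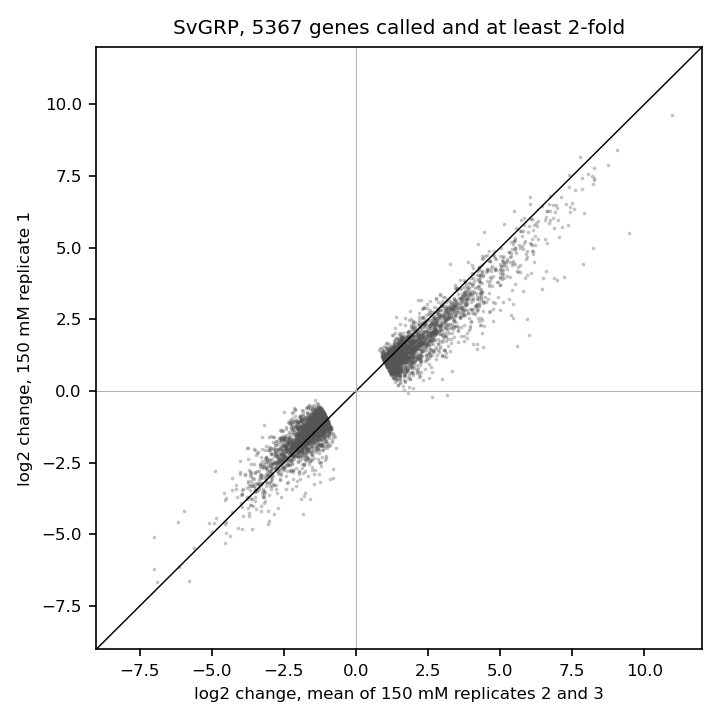
Change on SvGRP replicate 1 at 150 mM (vertical axis, log2) against the mean change of replicates 2 and 3 (horizontal axis, log2), both relative to the mean of the 3 arrays at 0 mM, for the 5367 genes called and at least 2-fold changed. The line marks equal change. On replicate 1 the change was the smaller for 4016 genes and kept its direction for 5364, which the choice of the genes, made with replicate 1 included, nearly fixes.

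Salt changed most of the measured genes. Of 26794 genes or unnamed probes tested with limma, 18442 (68.8%) were called at an adjusted p under 0.05, 8315 (31.0%) higher and 10127 (37.8%) lower. With slide in the fit 14505 (54.1%) were called, and 14270 of these were called the same way without it, 24.7% of all higher and 28.6% lower. Counts of list members below are to be read against these shares. Under scaling to the E1A spike-in probes the median change of all genes was 0.21 in place of -0.07, and 68.7% of the calls were higher in place of 45.1%. Every change given here is relative to the 75th percentile and would lie higher by the difference between those medians under spike-in scaling. At least 2-fold, 2449 genes (9.14%) were higher and 2918 (10.9%) lower. Larger fitted changes ran mainly upward. At least 8-fold, 518 were higher and 157 lower, and at least 32-fold, 127 were higher and 8 lower. These counts use fitted changes, whose size is not measured where a group lies under the dim limit. Under it on all 0 mM arrays and above it on all 150 mM arrays lay 374 genes, and 254 did the reverse. How many of these genes are in the 8-fold and 32-fold counts was not tallied.

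The largest rises belonged to genes of very different roles: a lipid transfer protein, cell wall enzymes, transcription factors, a mitochondrial chaperone and an embryo protein. LTP4 (AT5G59310), for a lipid transfer protein of the epidermis and cuticle, stood at -4.85, -4.91 and -7.08 on the 0 mM arrays and at 4.02, 5.37 and 5.32 at 150 mM. The groups lay far apart, with replicate 3 lowest at 0 mM and replicate 1 lowest at 150 mM, and the rise was 10.52 ± 0.68 (standard error, n = 3, log2, adjusted p = 1.1e-06, 11.98). CWINV5 (AT3G13784), of the cell wall invertase family, stood at -6.04, -6.49 and -7.70 and then at 1.03, 1.30 and 1.73, a rise of 8.09 ± 0.57 (9.05). BHLH92 (AT5G43650), a transcription factor gene known for its induction by salt, rose from -7.65, -7.16 and -8.04, with 2 of 3 arrays above the dim limit, to -0.25, 0.13 and 1.14, or by 7.96 ± 0.34 (8.38). EM1 (AT3G51810), for a late embryogenesis abundant (LEA) protein of the seed, rose from -7.48, -5.79 and -7.17 to 0.21, 0.47 and 1.08, or by 7.40 ± 0.63 (7.76).

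Several of the largest rises started at the dim limit, so only a bound can be given for some. The mitochondrial small heat shock protein gene HSP23.6-MITO (AT4G25200) was dim on all 0 mM arrays and at -1.20, -1.44 and -1.24 with salt, at least 86.2-fold higher (adjusted p = 4.0e-07). The gene sks8 (AT1G21850), of the multicopper oxidase-like SKU5 family, was at least 29.9-fold higher, at -3.37, -2.10 and -3.00 with salt. NRT2.6 (AT3G45060), of the high-affinity nitrate transporter family, was at least 36.4-fold higher. Its salt levels of -4.83, -1.96 and -0.83 were the most spread of the set, with replicate 1 lowest. ATHSP22.0 (AT4G10250), a small heat shock protein gene of the endoplasmic reticulum, rose by 7.30 (9.28) and the ethylene-response-factor gene RRTF1 (AT4G34410), known in redox signalling, by 7.16 (8.30), with 2 and 1 of 3 control arrays above the dim limit. TAT3 (AT2G24850), a jasmonate-induced tyrosine aminotransferase gene, rose by 7.04 (7.98, 2 of 3), BGLU27 (AT3G60120), a beta-glucosidase gene, by 7.70 (6.35, 1 of 3) and SAG13 (AT2G29350), a senescence-associated gene, by 7.15 ± 1.47 (9.10, 1 of 3). These 5 genes have no measured control level on every array, and their fitted changes depend on values near the detection limit.

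The 12 largest falls included transporters, cytochrome P450 genes, transcription factor LBD14 and the ethylene synthesis gene ACS4, described with its pathway. IRT1 (AT4G19690), the iron importer of the root epidermis, stood at -3.78, -1.92 and -2.12 without salt and was dim on all salt arrays, at least 39.5-fold lower (adjusted p = 2.1e-05). SLAH1 (AT1G62280), an anion channel homologue that takes part in loading chloride into the xylem, stood at -2.02, -1.93 and -1.64 and was at least 66.2-fold lower (adjusted p = 2.6e-07). ZIP8 (AT5G45105), of the same metal transporter family as IRT1, was at least 6.53-fold lower, and the glutaredoxin gene ROXY2 (AT5G14070), known from anther development, at least 19.7-fold lower. For these 4 genes no salt array rose above the dim limit, and every control array did. Among genes measured throughout, NRT1.5 (AT1G32450), which loads nitrate into the xylem, went from 3.76, 3.89 and 4.12 to 0.47, -0.15 and 0.10 and so fell by 3.78 ± 0.18 (-3.98). The beta-galactosidase gene BGAL4 (AT5G56870) fell from 2.13, 1.90 and 1.84 to -1.80, -1.97 and -1.70, by 3.78 ± 0.10 (-3.67), with close replicates in both groups. The cytochrome P450 genes CYP71A20 (AT4G13310) and CYP716A2 (AT5G36140) were at least 9.63-fold and 6.21-fold lower, and LBD14 (AT2G31310), a LOB-domain transcription factor gene, at least 6.28-fold lower.

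**Figure D2:**
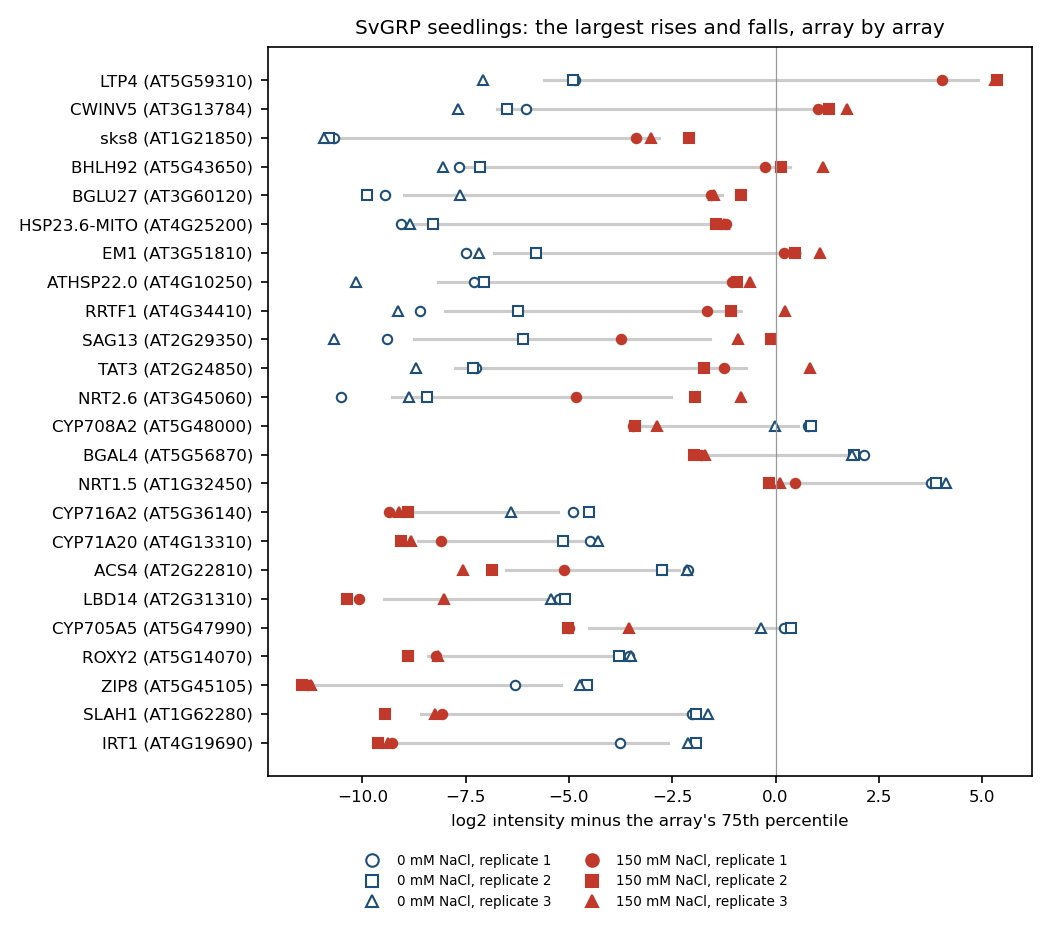
Level on each SvGRP array (horizontal axis, log2 intensity relative to the array's 75th percentile) of the 12 largest rises and 12 largest falls with a gene symbol; open symbols are 0 mM NaCl, filled symbols 150 mM, shapes are replicates 1 to 3 and grey lines join the group means. The genes were chosen with groups that do not overlap, as holds for 74.7% of all genes, and LTP4 has the widest gap, with a change of 10.52.

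In the ABA pathway the phosphatase brakes rose while most receptors fell. All 9 measured clade A phosphatase genes rose, with a median of 1.76 (1.86), against a median of -0.07 over all genes. Of the 9, 8 were above the dim limit on all 3 control arrays. The HAI phosphatases moved most. HAI2 (AT1G07430) stood at -5.52, -5.13 and -6.76 without salt and at -0.64, -0.25 and 0.29 with it, a rise of 5.60 ± 0.46 (6.56). HAI3 (AT2G29380) rose by 5.64 ± 1.11 (7.18) from control levels that spread from -6.92 to -3.29, and HAI1 (AT5G59220) rose by 3.76 ± 0.45 (4.41). Of 10 receptor genes 9 fell and 1 rose, with a median of -0.85 (-0.83) that was -0.57 under spike-in scaling. PYL6 (AT2G40330) fell most, from -1.61, -1.52 and -1.85 to -4.70, -4.33 and -4.85, or by 2.96 ± 0.24 (-2.77). PYL4 (AT2G38310) fell by 1.47 (-1.53) and PYL3 (AT1G73000) by 1.47 (-1.20), whereas PYL7 (AT4G01026) rose by 0.71 (0.76).

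Of the 10 measured kinase and bZIP genes that carry the signal onward, 6 rose and none fell: GBF3 (AT2G46270) by 1.36 (1.49), ABI5 (AT2G36270) by 1.32 (1.48) and ABF2 (AT1G45249) by 1.23 (1.25). Genes on both sides of the hormone's pool rose. NCED3 (AT3G14440), the limiting step of ABA synthesis, went from -2.67, -2.63 and -3.07 to -0.28, -0.13 and 0.68, a rise of 2.88 ± 0.28 (3.17). The 8'-hydroxylase gene CYP707A1 (AT4G19230), which breaks ABA down, rose by 1.92 (2.43) and the ABA importer gene ABCG40 (AT1G15520) by 3.76 (4.12). ABA1 (AT5G67030) and ABA2 (AT1G52340), of earlier and later steps of synthesis, fell by 0.57 (-0.54) and 0.33 (-0.30). The 15 genes of the list gave 10 rises and 2 falls.

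The protective products of ABA and osmotic stress mostly rose, 20 of 23 LEA, dehydrin and related genes, with 2 falls and a median of 2.37 (2.42). RD29B (listed as LTI65, AT5G52300), a reporter of ABA, stood at -4.15, -3.66 and -4.88 and then at -0.11, 1.61 and 2.05, and rose by 5.41 ± 0.57 (6.06). RD29A (LTI78, AT5G52310), which also answers to DREB factors, went from 1.85, 1.76 and 1.36 to 3.97, 4.71 and 4.97, and RAB18 (AT5G66400), a dehydrin gene, from 3.30, 3.52 and 3.38 to 6.23, 6.26 and 6.24. Replicate 1 was the lowest salt array for the RD29 pair, while the 3 salt arrays of RAB18 were nearly equal. LEA4-5 (AT5G06760) rose by 5.62 ± 0.72 (6.48). The falls were COR15B (AT2G42530), a chloroplast protein gene of the cold response, by 0.48, a call that was lost within slide 3 (-0.46), under quantile normalization (-0.39), under spike-in scaling (-0.19), with the replicate block (adjusted p = 0.060), without the filter on dim probes (adjusted p = 0.053), in the 6 SvGRP arrays alone (adjusted p = 0.058) and when any of 6 single arrays was left out, with the smallest value without the third salt array (-0.30, adjusted p = 0.14), and AT1G54410 by 0.38 (-0.27).

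Among transcription factors, all 10 measured DREB and CBF genes rose, with a median of 3.17 (3.38). On all 3 control arrays 7 of them were above the dim limit, against 10 on all salt arrays. The filter admits a gene on its salt arrays alone, so the count and the median lean in part on control levels near the limit. DDF1 (AT1G12610), a salt-induced member, was at least 33.1-fold higher, at -3.36, -2.82 and -1.85 with salt and dim without. DREB2A (AT5G05410), the main factor of drought and heat, went from -1.30, -1.03 and -1.42 to 2.15, 2.41 and 3.10, and rose by 3.80 ± 0.23 (3.98). CBF1 (AT4G25490), better known from cold, rose by 3.58 ± 0.26 (4.04). CBF genes lie next to near-identical copies, so their probes may share signal. Of 15 stress NAC genes 13 rose and none fell, with a median of 1.55 (1.5). NAC019 (AT1G52890) rose by 3.29 ± 0.29 (3.45), NAC3 (AT3G15500) by 3.05 (3.39) and RD26 (AT4G27410), an ABA-dependent factor of senescence and drought, by 2.46 (2.66). Of the 7 zinc finger repressors of the ZAT and AZF group 5 rose and 1 fell. ZAT7 (AT3G46090) rose by 4.07 (4.44), STZ (AT1G27730), the salt tolerance zinc finger, by 3.75 (3.81), and RHL41 (AT5G59820) by 3.48 (3.72).

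The HD-Zip class I factors split. Of 15 measured members 5 rose and 8 fell, around a median of -0.33 (-0.33, -0.05 under spike-in scaling). HB21 (AT2G18550) rose by 3.55 ± 0.22 (3.68), from -5.11, -5.16 and -5.32 to -2.13, -1.39 and -1.42. HB-12 (AT3G61890) rose by 2.34 (2.61) and HB-7 (AT2G46680) by 2.3 (2.53), and both are known as ABA-induced brakes on growth. HB52 (AT5G53980) fell by 1.07 (-1.1) and HB20 (AT3G01220) by 1.01 (-0.92). Among 69 WRKY factors, a family of defence and stress regulators, 31 rose and 20 fell. Above the dim limit were 63 of them on all control arrays, against 68 on all salt arrays. WRKY30 (AT5G24110) went from -7.14, -5.99 and -6.15 to -0.45, 0.59 and -0.31, a rise of 6.37 ± 0.48 (6.09), and WRKY40 (AT1G80840) rose by 3.85 (3.46). WRKY54 (AT2G40750), which limits salicylate signalling, went from -4.72, -4.74 and -4.80 to -6.68, -6.72 and -6.75 and fell by 1.96 ± 0.09 (-1.92), and WRKY35 (AT2G34830) fell by 1.43 (-1.39).

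Transport genes for sodium and potassium moved in both directions, with 10 rises and 10 falls among 21. SKOR (AT3G02850), which releases potassium into the xylem, went from -0.19, -0.43 and 0.22 to -3.25, -3.93 and -3.08, or by -3.29 ± 0.23 (-3.64). HKT1 (AT4G10310), which takes sodium back out of the xylem sap, stood at -2.07, -2.06 and -2.07 on the control arrays and at -4.86, -5.48 and -5.38 with salt, and fell by 3.18 ± 0.16 (-3.17). CHX17 (AT4G23700), a cation/proton exchanger of the root, fell by 3.00 ± 0.18 (-2.95). HAK5 (AT4G13420), the high-affinity potassium importer, rose by 2.68 ± 0.25 (2.79), and the vacuolar exchangers CAX3 (AT3G51860), for calcium, and NHX2 (AT3G05030), for sodium and potassium, rose by 2.56 (2.95) and 1.03 (1.15). SOS1 (AT2G01980), the sodium exporter, stood at -1.69, -1.75 and -1.66 and then at -1.53, -1.51 and -1.52. That rise of 0.18 ± 0.05 (adjusted p = 0.013) was lost within slide 3 (0.14, adjusted p = 0.20), and also when the second control array of SvGRP was left out (0.15, adjusted p = 0.057). Beside SLAH1, the anion list held 3 rises and 2 more falls among 10 genes: the vacuolar nitrate exchanger gene CLC-A (AT5G40890) fell by 0.89 (-0.88) and SLAH2 (AT4G27970), a nitrate channel gene, rose by 0.95 (0.77).

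Genes of mineral nutrition fell for nitrogen and iron and rose for sulfur. Of 13 nitrate and nitrogen genes 11 fell and 2 rose, with a median of -0.76 (-0.82, -0.48 under spike-in scaling). NIA1 (AT1G77760), a nitrate reductase gene, went from 4.53, 4.58 and 4.68 to 1.38, 1.1 and 1.55 and fell by 3.25 ± 0.11 (-3.33), and the asparagine synthetase gene ASN1 (AT3G47340) fell by 2.48 (-2.26). The 2 that rose were NRT1.8 (AT4G21680), which unloads nitrate from the xylem, by 2.05 (2.39), and NRT2:1 (AT1G08090), the high-affinity importer, by 1.24 (1.67). The exporter to the xylem and the importer from it thus moved oppositely.

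Of 21 iron deficiency genes 15 fell and none rose, with a median of -0.90 (-0.87). BHLH101 (AT5G04150), a regulator of iron uptake, went from -3.82, -2.64 and -3.52 to -5.41, -6.33 and -5.95 and fell by 2.57 ± 0.41 (-2.38). Its partner bHLH38 (AT3G56970) fell by 1.83 (-0.99, not called), and by 1.13 without SvGRP at 0 mM replicate 2, which was the highest control array. Of 4 ferritin genes, which store iron, FER2 (AT3G11050) rose by 2.46 (2.45) and FER4 (AT2G40300) by 0.36 (0.41, not called). The sulfate list of 11 gave 7 rises and 1 fall, its median being 1.68 (1.77). ATSDI1 (AT5G48850) and LSU2 (AT5G24660), known markers of sulfur deficiency, rose by 2.71 ± 0.39 (3.17) and 2.56 ± 0.18 (2.90), the latter from -0.72, -0.53 and -1.15 to 1.45, 2.01 and 1.81. The phosphate starvation list gave 2 rises and 4 falls among 14 genes. PHO1 (AT3G23430), which loads phosphate into the xylem, fell from 1.63, 1.57 and 1.72 to -0.16, -0.57 and -0.21, by 1.95 ± 0.12 (-2.03), while the acid phosphatase gene PAP17 (AT3G17790) rose by 2.24 (2.67).

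Osmolyte and sugar genes changed member by member. In proline metabolism 6 of 9 rose and 2 fell. P5CS1 (AT2G39800), the limiting enzyme, went from 2.12, 2.05 and 1.79 to 3.34, 3.81 and 3.82, and rose by 1.67 ± 0.19 (1.86). ALDH12A1 (AT5G62530), of proline breakdown, rose by 1.26 (1.33), and ERD5 (AT3G30775), the proline dehydrogenase at the head of that route, fell by 0.71 (-0.82). Among 9 genes for galactinol, raffinose and trehalose 3 rose and 4 fell. The galactinol synthase genes GolS4 (AT1G60470) and GolS2 (AT1G56600) rose by 4.09 ± 0.46 (5.20) and 3.04 ± 0.30 (3.64), GolS2 from -1.82, -1.62 and -2.61 to 0.83, 0.84 and 1.41. DIN10 (AT5G20250), a dark-induced gene of the raffinose family, fell from 3.72, 3.55 and 3.71 to 1.22, 1.49 and 1.29, by 2.33 ± 0.12 (-2.38), and the trehalose phosphatase gene TPPB (AT1G78090) fell by 1.64 (-1.55).

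Starch and sucrose genes showed exchanges within families. APL3 (AT4G39210), a large subunit of ADP-glucose pyrophosphorylase, the entry enzyme of starch synthesis, stood at -0.09, -0.02 and -0.08 on the control arrays and at 3.12, 3.94 and 4.05 with salt, a rise of 3.77 ± 0.20 (3.78). Its sister APL1 (AT5G19220), the main leaf subunit, fell from 3.98, 4.04 and 4.11 to 3.27, 2.96 and 2.60, by 1.11 ± 0.14 (-1.17). GPT2 (AT1G61800), the glucose phosphate carrier of plastids, rose by 3.96 ± 0.48 (3.63), the amylase gene BAM1 (AT3G23920) by 2.00 (2.09), and QQS (AT3G30720), which influences starch content, fell by 1.68 (-1.96). In all 5 of 17 starch genes rose and 8 fell. Of 16 invertase, sucrose synthase and carrier genes 5 rose and 8 fell. Beside CWINV5, the sugar exporter gene SAG29 (AT5G13170) rose from -1.78, -1.23 and -2.70 to 2.07, 3.38 and 3.49, by 4.88 ± 0.63 (5.68), and SUS3 (AT4G02280), a sucrose synthase gene, by 3.01 (3.26). The hexose importer gene STP1 (AT1G11260) fell by 1.73 ± 0.11 (-1.65).

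Water channel genes mostly fell. Of 8 measured plasma membrane aquaporin genes 7 fell, with a median of -0.84 (-0.82, -0.56 under both spike-in scaling and quantile normalization). PIP2B (AT2G37170) went from 3.56, 3.50 and 3.57 to 2.24, 2.16 and 2.12, and its near-identical neighbour RD28 (AT2G37180) fell by 1.41 (-1.43), so their probes may share signal. Of the 4 measured tonoplast aquaporin genes 3 fell and 1 rose. TIP2 (AT3G26520) fell by 1.37 ± 0.08 (-1.32), from 5.65, 5.68 and 5.59 to 4.41, 4.34 and 4.06, and GAMMA-TIP (AT2G36830) by 1.16 (-1.20). BETA-TIP (AT1G17810), known from seeds, was at least 1.31-fold higher, a call that was lost within slide 3 (0.78), without the filter on dim probes (adjusted p = 0.056) and when any of 6 single arrays was left out, with the smallest value without the second SvGRP control array (0.69, adjusted p = 0.16).

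Wall-loosening genes moved in both directions, and more falls than rises were called only without slide in the fit. Of 20 alpha expansin genes 10 fell and 4 rose, or 4 and 5 with slide in the fit, and the median was -0.57 (-0.40). EXPA8 (AT2G40610) fell from 3.69, 3.78 and 3.84 to 1.62, 0.69 and 0.00, by 3.00 ± 0.33 (-3.07). EXPA10 (AT1G26770), known from leaf growth, rose from -0.96, -0.87 and -0.82 to 0.83, 2.34 and 1.84, by 2.55 ± 0.31 (2.49). Replicate 1 had the smaller change in both. EXPA7 (AT1G12560), of root hairs, fell by 1.70, a call that ended with slide in the fit (-1.14). Among 32 xyloglucan endotransglucosylase genes 11 fell and 7 rose, or 7 each with slide in the fit. XTH21 (AT2G18800), of roots, fell by 2.45 (-2.20) and XTH17 (AT1G65310) by 1.78 (-1.70), while XTR6 (AT4G25810) rose by 2.75 (3.08) and XTH11 (AT3G48580) by 2.73 (3.28). XTH29 (AT4G18990) was at least 5.49-fold higher and XTH2 (AT4G13090) at least 2.42-fold lower. In contrast, 5 of the 6 genes for cellulose synthases of the primary wall rose and none fell, CESA1 (AT4G32410) by 0.50 (0.59).

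Many genes of growth hormones fell. All 10 type-A response regulators, which cytokinin induces and which damp its signal, fell, with a median of -1.56 (-1.61). ARR6 (AT5G62920) went from -0.69, -0.81 and -0.68 to -2.41, -2.53 and -2.32, a fall of 1.69 ± 0.12 (-1.74), and ARR15 (AT1G74890) fell by 1.83 (-2.04). Of 28 Aux/IAA genes, the early auxin-induced repressors, 20 fell and 2 rose, with a median of -0.61 (-0.63, -0.32 under spike-in scaling). IAA29 (AT4G32280) went from 1.67, 1.52 and 1.69 to -0.40, -2.06 and -1.76, by -3.04 ± 0.34 (-3.10). IAA34 (AT1G15050) and IAA6 (AT1G52830) fell by 3.18 ± 0.19 (-3.36) and 3.17 ± 0.45 (-3.40). Of 61 measured SAUR genes, small auxin-induced growth genes, 37 fell and 10 rose, and the median was -0.78 (-0.79). AT4G34790 fell from -3.11, -3.11 and -2.95 to -5.69, -6.40 and -6.40, and AT1G16510 went the other way, from -3.16, -3.19 and -3.30 to -1.09, -0.36 and -0.20. Among 11 gibberellin oxidases 2 rose and 5 fell, and genes of breakdown were on both sides. GA3OX2 (AT1G80340) and GA20OX1 (AT4G25420), of synthesis, fell by 2.19 (-2.06) and 1.67 (-1.73), and ATGA2OX1 (AT1G78440), of breakdown, fell by 1.53 (-1.48). GA2OX7 (AT1G50960) and GA2OX2 (AT1G30040), also of breakdown, rose by 0.82 (1.12) and 0.75 (0.76). Of 10 cell cycle genes 3 fell and none rose: the mitotic kinase gene AUR1 (AT4G32830) by 1.14 (-1.16), the mitotic cyclin gene CYC1BAT (AT5G06150) by 1.08 (-1.16) and SYP111 (AT1G08560), of cell plate formation, by 1.00 (-1.03).

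Photosynthesis genes fell by small amounts in near unison. Of 43 photosystem and antenna genes 41 fell and 1 rose, yet 4 fell at least 2-fold, and the median was -0.49 (-0.50). That median was -0.16 under quantile normalization and -0.21 under spike-in scaling. Fewer of these falls were called with slide in the fit. LHCB2.3 (AT3G27690), a light-harvesting protein gene, went from 6.15, 6.25 and 6.17 to 5.14, 4.61 and 3.96, or by -1.62 ± 0.23 (-1.60). Of 14 Calvin cycle genes 13 fell, with a median of -0.75 (-0.73, -0.36 under quantile normalization and -0.46 under spike-in scaling). SBPASE (AT3G55800) went from 5.11, 5.24 and 5.31 to 4.21, 3.84 and 3.52, and CP12-2 (AT3G62410), a regulator of the cycle, fell by 1.56 (-1.61). In both genes replicate 3 was the lowest of the salt arrays. Of 12 chlorophyll synthesis genes 8 fell and none rose. In the list for chlorophyll breakdown and senescence 5 of 11 rose and 4 fell. ACD1 (AT3G44880), the enzyme that opens the chlorophyll ring, rose by 1.36 (1.48), and SEN1 (AT4G35770), a dark- and senescence-induced gene, fell by 2.47 ± 0.37 (-2.36).

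Most protein folding genes rose. All 7 small heat shock protein genes rose, with a median of 5.46 (5.93). On all 3 control arrays 4 of them were above the dim limit, against 7 on all salt arrays, so that median leans on control levels near the limit. HSP17.6A (AT5G12030) went from -6.75, -6.22 and -6.99 to -0.64, -0.71 and -0.42, by 6.07 ± 0.32 (6.40). Of 15 heat shock factor and large chaperone genes 14 rose, with a median of 1.75 (1.87). HSFA2 (AT2G26150), the heat-induced factor that prolongs the heat response, rose from -5.37, -5.01 and -5.44 to 0.73, 0.51 and 1.07, or by 6.04 ± 0.23 (6.21). HSFA6B (AT3G22830), an ABA-induced factor, rose by 6.11 ± 0.53 (6.86), and HSP70 (AT3G12580), a cytosolic chaperone gene, by 3.57 ± 0.16 (3.72). In the endoplasmic reticulum list 10 of 12 rose and 1 fell, by less: the median was 0.76 (0.77), and BZIP60 (AT1G42990), the factor that splicing activates when proteins misfold there, rose by 1.28 ± 0.13 (1.37). Of the 9 ATG8 autophagy genes 5 fell and none rose, ATG8E (AT2G45170) by 1.33 ± 0.11 (-1.32).

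Mitochondrial stress genes rose in 11 of 12 cases, with a median of 1.52 (1.60). On all 3 control arrays 10 of the 12 were above the dim limit, against 12 on all salt arrays. BCS1 (AT3G50930), an outer membrane ATPase gene used as a marker of mitochondrial dysfunction, went from -3.74, -2.58 and -3.20 to 2.38, 2.87 and 2.71, a rise of 5.83 ± 0.41 (5.85). AOX1D (AT1G32350), an alternative oxidase that bypasses the proton-pumping chain, rose from -5.39, -5.05 and -5.41 to -0.64, -0.07 and -0.86, or by 4.76 ± 0.27 (4.89). NDA1 (AT1G07180), a light-regulated alternative dehydrogenase gene, fell by 0.75 (-0.80). In the scavenging list, the copper/zinc superoxide dismutase genes CSD2 (AT2G28190) and CSD1 (AT1G08830) fell by 1.91 ± 0.15 (-2.06) and 1.30 ± 0.14 (-1.35), CSD2 from 3.79, 3.79 and 4.02 to 2.19, 1.82 and 1.85. They were the 2 falls among 16 genes, beside 7 rises such as the chloroplast ascorbate peroxidase gene SAPX (AT4G08390), by 1.03 (0.97), and the dehydroascorbate reductase gene DHAR1 (AT1G19570), by 0.99 (1.09). Of 27 tau glutathione S-transferases 10 rose and 11 fell, with the larger changes upward: GSTU12 (AT1G69920) rose by 3.82 (3.05) and GSTU4 (AT2G29460) by 3.08 (3.42), and GSTU14 (AT1G27140) fell by 2.38 (-2.31).

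All 10 measured genes of ribosome assembly in the nucleolus rose, by similar amounts, with a median of 1.23 (1.24). NUC-L1 (AT1G48920), for nucleolin, went from 1.84, 1.87 and 1.90 to 3.29, 3.18 and 3.32, a rise of 1.39 ± 0.09 (1.37), and FIB2 (AT4G25630), a fibrillarin gene, from 0.42, 0.40 and 0.27 to 1.68, 1.45 and 1.57. Unlike most rises here, those of this list were not smaller on replicate 1, whose median change was 1.32 against 1.17 for replicates 2 and 3. FIB2 was chosen after its values were seen. Of 9 polyamine genes 5 rose and 3 fell. SPDS3 (AT5G53120), a spermine synthase gene, rose by 1.93 ± 0.17 (2.04) and the arginine decarboxylase gene ADC2 (AT4G34710) by 0.79 (0.83), while ADC1 (AT2G16500), for the same enzyme step, fell by 0.54 (-0.63). ACL5 (AT5G19530), for thermospermine, and BUD2 (AT5G18930), the decarboxylase known to act with it in vascular growth, fell from 0.89, 0.76 and 0.78 to -1.09, -1.66 and -1.64 and from -3.1, -3.07 and -3.01 to -5.33, -6.10 and -5.57. Their falls were 2.27 ± 0.13 (-2.24) and 2.60 ± 0.18 (-2.65).

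**Figure D3:**
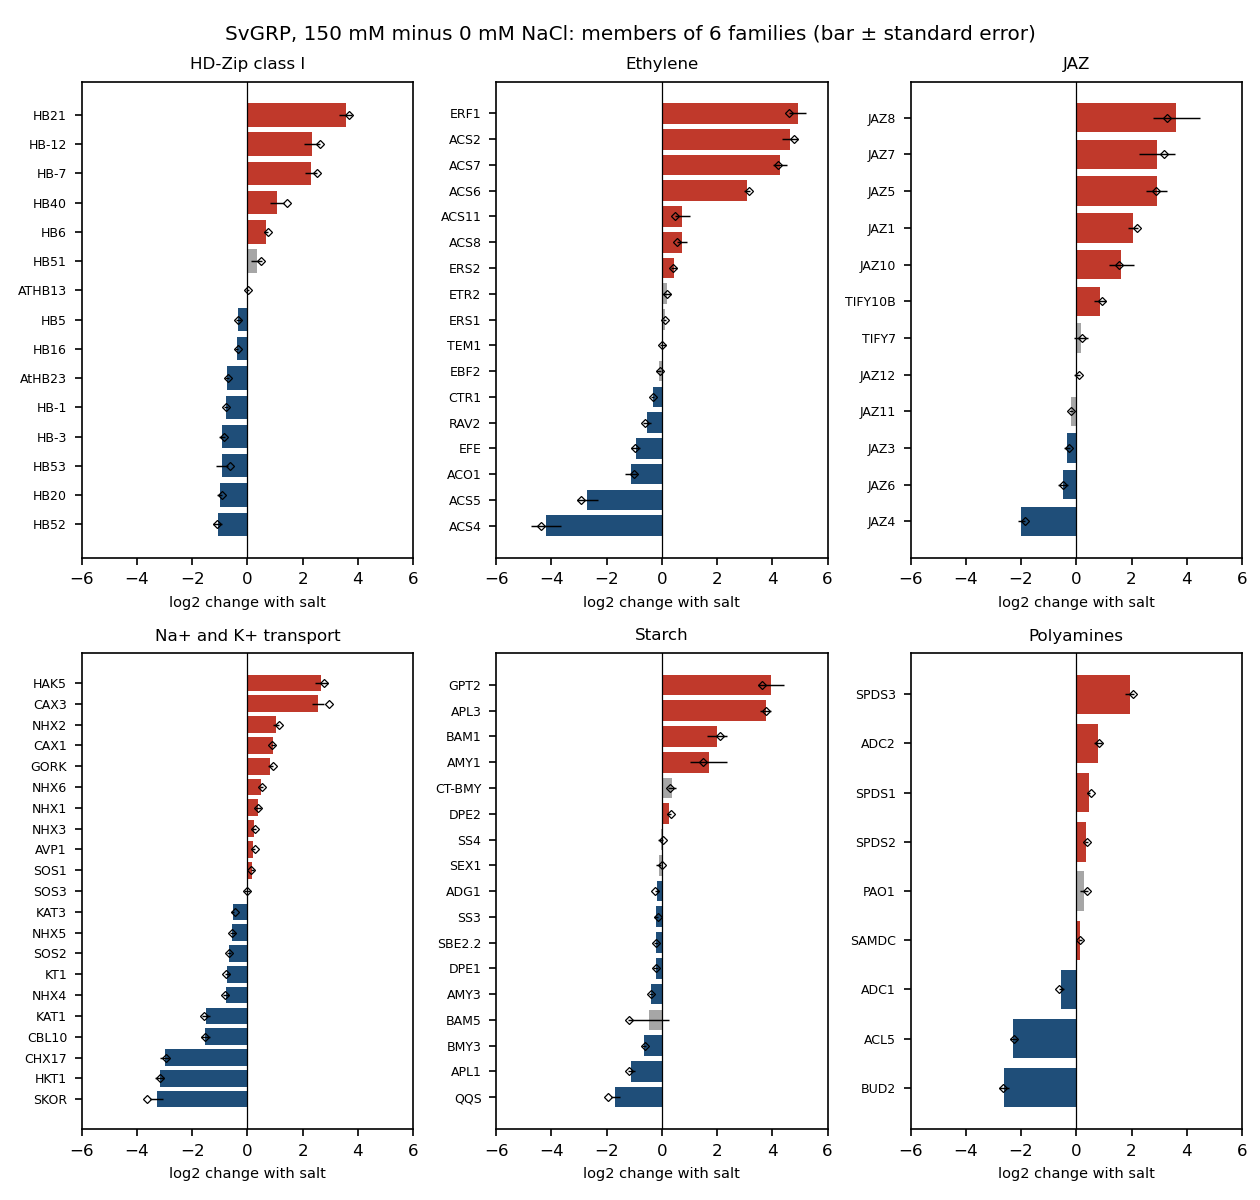
Change with salt in SvGRP (log2, bars with standard error, n = 3 arrays per group) of each measured member of 6 lists; red bars were called higher, blue lower and grey not called, and diamonds give the change with slide in the fit. Each list holds called changes of at least 2-fold in both directions, though the JAZ list has 1 such fall and the polyamine list 1 such rise. The ethylene genes ACS2 at 4.65 and ACS4 at -4.19 lie far apart.

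Anthocyanin genes mostly rose. Of 12 measured genes for anthocyanin synthesis and its MYB factors 8 rose, all at least 2-fold, and 1 fell, with a median of 2.98 (3.13). Above the dim limit were 10 of the 12 on all control arrays, against 11 on all salt arrays. With bounds in place of fitted changes for dim groups the median was 2.88. PAP1 (AT1G56650), the MYB factor that switches the pathway on, went from -3.38, -3.42 and -3.60 to 1.05, 0.88 and 1.52, a rise of 4.62 ± 0.17 (4.75). DFR (AT5G42800), the first enzyme committed to anthocyanins, went from -4.22, -4.26 and -3.66 to -0.23, 0.17 and 0.35, by 4.14 ± 0.20 (3.76). GSTF12 (AT5G17220), the carrier of the pigment to the vacuole, rose by 4.29 (4.12), and the repressor gene MYBL2 (AT1G71030) fell by 0.51 (-0.36, not called). Flavonol and early flavonoid genes rose less, 7 of 10 with 1 fall and a median of 0.62 (0.47). MYB11 (AT3G62610), a flavonol regulator, was at least 3.68-fold higher, whereas its relative MYB12 (AT2G47460) fell by 0.61 (-0.66).

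The barrier lists moved both ways, with shares of called rises near that of all genes. In the suberin and Casparian list MYB41 (AT4G28110), a suberin regulator, rose from -3.46, -3.63 and -3.57 to -1.23, -0.98 and -1.40, by 2.35 ± 0.30 (2.36), and MYB93 (AT1G34670) by 1.06 (1.16), while the suberin alcohol gene FAR1 (AT5G22500) fell by 0.73 (-0.75). Its 12 measured members gave 3 rises and 4 falls. Among 17 wax genes 6 rose and 5 fell. The wax ester synthase gene WSD1 (AT5G37300) rose by 3.13 ± 0.43 (3.17) and CER1 (AT1G02205), of alkane synthesis, from 2.41, 2.27 and 1.92 to 3.24, 4.28 and 4.23, by 1.71 ± 0.26 (2.00). In lignin synthesis the alcohol dehydrogenase genes CAD5 (AT4G34230) and ATCAD4 (AT3G19450) moved oppositely, by 1.15 ± 0.12 (1.16) and -1.08 ± 0.05 (-1.17).

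The triterpene clusters of the root fell. All 7 measured genes fell, with a median of -3.09 (-2.60), and 5 fell with slide in the fit. CYP705A5 (AT5G47990), a cytochrome P450 of the thalianol cluster, went from 0.21, 0.37 and -0.36 to -5.0, -5.03 and -3.53, a fall of 4.59 ± 0.40 (-4.16). Its cluster neighbour CYP708A2 (AT5G48000) fell by 3.78 ± 0.25 (-3.23), and PEN1 (AT4G15340), a triterpene cyclase gene, by 3.45 ± 0.20 (-3.60). Control replicate 3 was the lowest control array for both cluster genes. Markers of the root and root hair lay lower beside them: of 15, 8 fell and 1 rose. Their median was -1.04 but -0.39 within slide 3 and -0.55 without the second salt array, and fewer falls were called with slide in the fit. In wild type 5 of the 15 rose and 2 fell, with a median of 0.78. The summed linear level of the 15 in SvGRP was 3.43 to 4.48 without salt and 2.12 to 2.71 with it. SHV2 (AT5G49270), of root hair growth, fell by 2.23 ± 0.37 (-1.87), and MRH6 (AT2G03720) by 2.01, a call that ended with slide in the fit (-1.17). WOX5 (AT3G11260), of the quiescent centre, rose by 1.02 (1.38). No defining marker of the root was at the dim limit. The part that root tissue has in the falls of triterpene, iron and xylem genes was not tested, and in whole seedlings fewer cells of a type and less RNA per cell cannot be told apart.

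Other tissue markers moved too. The summed level of the shoot list was 4.53 to 5.05 without salt and 2.87 to 3.58 with it, with 7 falls and no rise among 10 genes, the stomatal lineage factor SPCH (AT5G53210) by 0.99 (-1.23). Of the 6 measured seed storage and oleosin genes 3 rose and 1 fell. The oil body genes OLEO2 (AT5G40420) and OLEO1 (AT4G25140) rose by 2.12 (1.73) and 2.05 (1.55), and the sum went from 0.151 to 0.228 up to 0.492 to 0.766. These genes moved beside EM1 and other seed LEA genes, and their part in those rises was not tested. The floral homeotic gene PI (AT5G20240) rose by 2.27 ± 0.24 (1.97) while SEP3 (AT1G24260) fell by 1.25 (-1.32).

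The defence hormones came next. For ethylene the synthases changed over. ACS2 (AT1G01480) went from -4.21, -4.01 and -4.29 to 0.04, 0.78 and 0.61, and ACS7 (AT4G26200) from -4.01, -3.63 and -3.72 to 0.25, 0.71 and 0.52, rises of 4.65 ± 0.29 (4.77) and 4.28 ± 0.26 (4.21). ACS4 (AT2G22810), known as auxin-induced, went from -2.11, -2.74 and -2.13 to -5.11, -6.86 and -7.57, a fall of 4.19 ± 0.54 (-4.38), and ACS5 (AT5G65800) fell by 2.70 (-2.92), with 1 of 3 salt arrays above the dim limit. The response factor gene ERF1 (AT3G23240) rose by 4.92 ± 0.31 (4.59), and the list of 17 gave 7 rises and 6 falls.

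For jasmonate, 10 of 18 genes of synthesis, turnover and output rose and none fell, with a median of 0.91 (1.28). CORI3 (AT4G23600), a jasmonate-induced lyase gene, went from -1.56, -1.73 and -2.36 to 1.22, 2.79 and 2.96, by 4.21 ± 0.42 (4.68), and the synthesis gene LOX3 (AT1G17420) rose by 2.2 (2.19). Of 12 JAZ repressors, the brakes that jasmonate removes and then replaces, 6 rose and 3 fell. JAZ8 (AT1G30135) and JAZ7 (AT2G34600) rose by 3.63 ± 0.85 (3.29) and 2.93 ± 0.65 (3.16), JAZ8 with 2 of 3 control arrays above the dim limit, and JAZ4 (AT1G48500) fell from -3.16, -3.20 and -3.35 to -5.03, -5.43 and -5.21, by 1.98 ± 0.11 (-1.87). The salicylate list gave 7 rises and 7 falls among 16. CBP60G (AT5G26920), which turns on salicylate synthesis, rose from -4.87, -3.78 and -4.85 to -0.83, -0.42 and -0.55, by 3.90 ± 0.27 (4.25), and FMO1 (AT1G19250), of systemic resistance, by 2.98 (3.55), while the pathogenesis-related gene PR5 (AT1G75040) fell by 0.92 (-0.79).

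Aliphatic glucosinolate genes, which make methionine-derived defence compounds, fell: 9 of 11 fell and 1 rose, with a median of -1.54 (-1.42). The chain elongation genes IMS2 (AT5G23020), BCAT4 (AT3G19710) and MAM1 (AT5G23010) fell by 2.49 ± 0.17 (-2.31), 2.25 (-2.12) and 2.10 (-2.01). In this list replicate 1 had the larger falls, with a median change of -1.87 against -1.22 for replicates 2 and 3, and MAM1 stood at -1.11, -0.06 and 0.39 on the salt arrays. Indole glucosinolate, camalexin and myrosinase genes gave 3 rises and 5 falls among 14.

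Arabidopsis relatives of the transgene's product and the clock were looked at last. Of 10 measured genes for cold shock proteins and RNA-binding proteins of the glycine-rich kind, 6 rose and 3 fell, with a median of 0.53 (0.48). The mitochondrial members GR-RBP3 (AT5G61030) and GR-RBP2 (AT4G13850) went from 0.22, 0.26 and 0.26 to 1.91, 1.65 and 1.78 and from 1.22, 1.2 and 1.1 to 2.25, 2.13 and 2.3. They rose by 1.53 ± 0.14 (1.52) and 1.05 ± 0.08 (1.12). CSDP1 (AT4G36020), a cold shock protein gene, rose by 1.01 (0.97). GRP7 (AT2G21660) stood at 5.43, 5.47 and 5.30 and then at 5.30, 5.31 and 5.44, so its groups overlapped. Its change was -0.05 ± 0.08 (0.05), not called. Under quantile normalization it was 0.29 and called as a rise (adjusted p = 0.0064), and under spike-in scaling 0.23 and not called. GRP8 (listed as CCR1, AT4G39260) fell by 0.33 ± 0.12 (adjusted p = 0.028). Its groups overlapped too, at 4.71, 4.79 and 4.51 against 4.23, 4.19 and 4.59. The call was lost under quantile normalization (-0.08), under spike-in scaling (-0.05), within slide 3 (-0.18) and in the 6 SvGRP arrays alone (adjusted p = 0.070). It was also lost when any of 4 single SvGRP arrays was left out, with the smallest value without the second salt array (-0.26, adjusted p = 0.10). Of 15 clock genes 2 rose and 7 fell. COR27 (AT5G42900), a cold- and light-regulated clock gene, went from -4.41, -4.33 and -4.44 to -2.07, -1.77 and -1.66, by 2.56 ± 0.10 (2.61), and PRR7 (AT5G02810) and GI (AT1G22770) fell by 0.81 (-0.70) and 0.75 (-0.72).

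**Figure D4:**
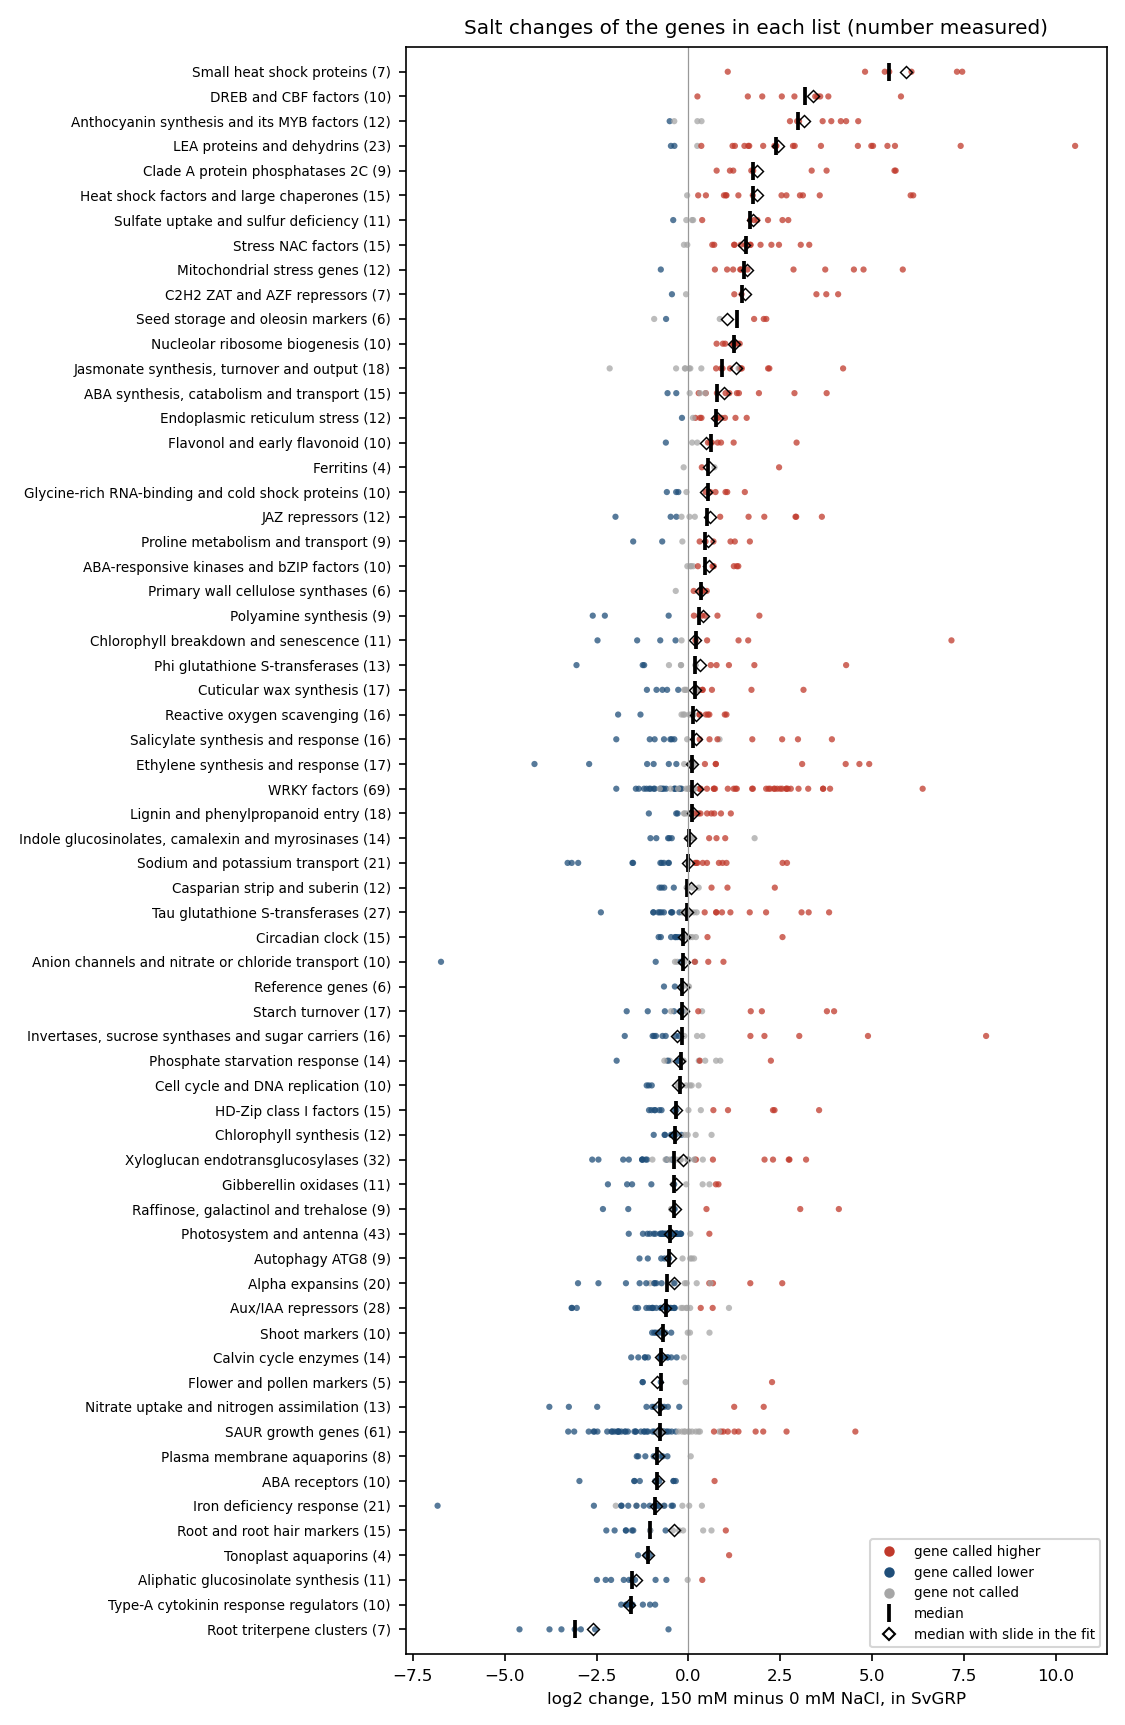
Change with salt in SvGRP (log2) of each measured gene in the 64 lists, ordered by the list's median; red points were called higher, blue lower and grey not called, bars mark the median and diamonds the median with slide in the fit. Small heat shock proteins lie highest (median 5.46) and root triterpene genes lowest (-3.09), while WRKY, transport and ethylene genes spread to both sides of 0.

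The salt response of SvGRP was tested against that of wild type, in the fit of all 12 arrays, to find where the genotypes differ. Of the 2449 genes at least 2-fold higher in SvGRP, 2262 were also called higher in wild type and 7 lower, and of the 2918 at least 2-fold lower, 2241 were called lower and 75 higher. The difference of responses was called for 2402 genes (8.96%), 675 (2.52%) more positive and 1727 (6.45%) more negative in SvGRP. With slide in the fit 138 were called, and 100 (0.373%) were called the same way in both fits. In that fit the difference rests on wild type at 150 mM replicate 1 and SvGRP at 0 mM replicate 3. At neither NaCl level did a slide carry both genotypes, so slide and genotype cannot be fully told apart. By list, 5 of 23 LEA genes had a more positive response in SvGRP, 2 of them in both fits, and 5 of 11 aliphatic glucosinolate and 8 of 15 root and root hair genes a more negative one, 0 of them in both fits.

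For several named genes called in both fits the means without salt lay apart as well, a difference that was not tested. SIB1 (AT3G56710), of defence and chloroplast signalling, stood at -4.61, -4.27 and -4.57 in SvGRP and rose by 3.08 ± 0.22 (3.17). In wild type its mean was -0.56 without salt and its change -0.32, a difference of responses of 3.41 (adjusted p = 0.0015, 3.82 with slide in the fit). ERF104 (AT5G61600), an ethylene response factor gene, rose by 2.04 ± 0.10 (2.01) from -1.78, -2.0 and -1.84, with a change of -0.24 in wild type from a mean of 1.14, a difference of 2.28 (2.22). PBP1 (AT5G54490), a calcium-binding protein gene of auxin transport, rose by 3.14 (3.25) against 0.72, a difference of 2.42 (2.84). WRKY70 (AT3G56400), a regulator between salicylate and jasmonate, had a mean of 2.19 in wild type and fell there by 2.33. In SvGRP it stood at -1.53, -1.14 and -1.57 and then at -0.98, -1.23 and -1.10, overlapping groups, with a rise of 0.31 (0.46). That call of WRKY70 ended in the 6 SvGRP arrays alone (adjusted p = 0.094). It also ended when any of 4 single SvGRP arrays was left out, with the smallest value without the third control array (0.23, adjusted p = 0.12). The difference of the responses of WRKY70 was 2.64 (2.69). ACD6 (AT4G14400), of cell death, and CYP712A1 (AT2G42250) fell less than in wild type, with differences of 2.76 (2.58) and 3.52 (3.88). ACD6's own fall of 0.64 in SvGRP ended with slide in the fit (-0.58) and when the second salt array was left out (-0.50, adjusted p = 0.052).

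The differences in the other direction were PGL5 (AT5G24420), a gene of the 6-phosphogluconolactonase family, which fell in SvGRP from -0.83, -0.57 and -0.47 to -3.71, -2.90 and -3.60, by 2.78 ± 0.30 (-2.94), against -0.06 in wild type. The difference was -2.72 (adjusted p = 0.0085, -3.42). SLAH4 (AT1G62262), an anion channel homologue, was at least 3.66-fold lower in SvGRP, with a difference of -2.24 (-3.13). MYB50 (AT1G57560) fell by 1.19 (-1.01) in SvGRP and changed upward by 0.32 in wild type, a difference of -1.51 (-1.43). XTH13 (AT5G57540) and AGP6 (AT5G14380) fell by 1.16 and 0.45 in SvGRP, calls that ended with slide in the fit (-0.26 and 0.02). The groups of AGP6 overlapped, and its call was lost when any of 9 single arrays was left out. Both genes rose in wild type, by 1.63 and 1.22, and the differences were -2.80 (-1.42) and -1.67 (-0.97). LDOX (AT4G22880), a late anthocyanin gene, rose in both genotypes, by 3.65 ± 0.17 (3.33) from -5.82, -5.92 and -5.39 in SvGRP and by 5.33 from a mean of -7.18 in wild type, a difference of -1.68 (-1.90). Its list gave 7 of 12 differences called negative, 1 of them in both fits, and medians of 2.98 in SvGRP and 3.90 in wild type.

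**Figure D5:**
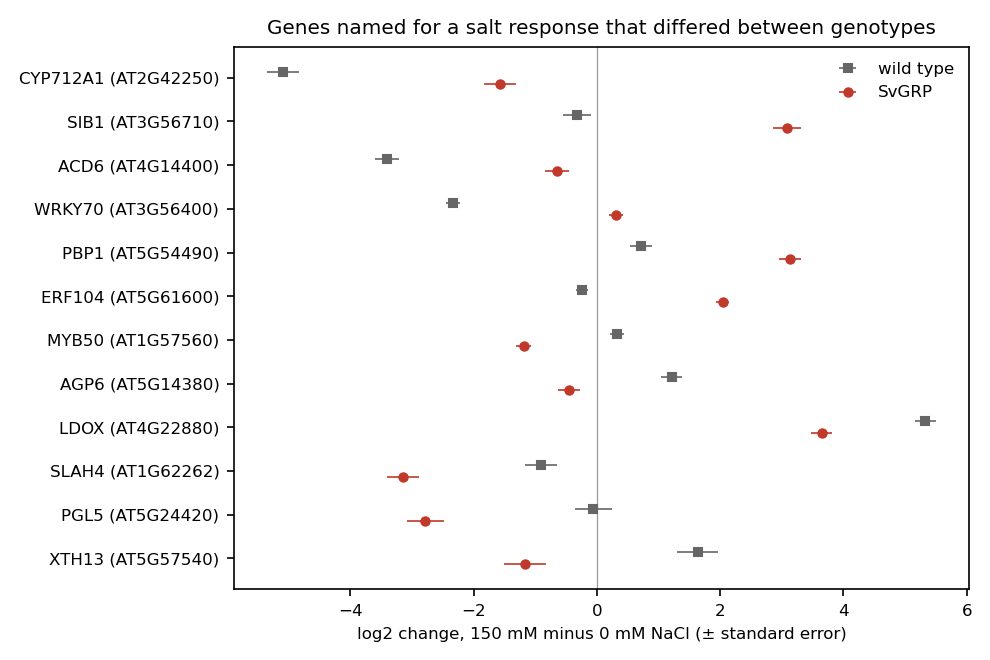
Change with salt (horizontal axis, log2, with standard error, n = 3 arrays per group) in wild type (squares) and SvGRP (circles) of the 12 genes with the largest differences of response called with and without slide in the fit. SIB1 and ERF104 rose in SvGRP by 3.08 and 2.04 against -0.32 and -0.24 in wild type, and XTH13 and AGP6 differ in sign between the genotypes.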

How the data were processed

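The authors deposited for each array the scanner's processed signal, an intensity on a linear scale with no flags, background or mean columns, per the file headers; Agilent Feature Extraction is named in the submitters' processing notes, without a version. A series table that the authors deposited gives log2 values; these differed from values computed here by at most 0.000213. Of 43603 non-control probes, 34344 had a gene in the probe table, matched to the RefSeq gene table (TAIR10.1, names only) by accession (32283), locus tag (1318) or symbol (697), with 46 kept as the probe table names them; 9259 were unnamed. From each log2 intensity the 75th percentile of its array was subtracted. A probe was kept (35454 probes) when every array of some group had it above the array's 20th percentile, and the brightest probe stood for its gene, which left 26794. A gene that no array of a group had above that limit is called dim there and given as at least N-fold, the bright group's mean against the lowest measurable signal. Saturation could not be checked.

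limma 3.58.1 in R 4.3.3 fitted 4 group means over 12 arrays (8 residual and 1.74 prior degrees of freedom; 6 residual with slide). Calls have a Benjamini-Hochberg adjusted p under 0.05 over all 26794. In simulated data, 200 of 26794 genes were changed. There the salt fit found 80% of the 2-fold and 94% of the 4-fold genes and called 13 that had no change. Adding slide gave 62%, 90% and 9. On the real arrays 68.8% of genes were called for salt, a far larger share, so these figures may not carry over. No conclusion about the part of slide is drawn from them. Replicate numbers did not pair the samples (correlations of deviations 0.015, 0.015 and -0.183). The members and the 64 lists (1100 entries, 22 without a name in RefSeq; 953 of 1072 distinct genes measured) were chosen with earlier results of these data known. Named genes are the 12 largest rises and falls with a symbol, groups apart and called with slide too, up to 3 called rises and falls per list, the 6 largest differences between genotypes each way called in both fits, and RD29A, RD29B, RAB18, NCED3, P5CS1, HKT1, SOS1, GRP7 and GRP8. No sequences are shown. Alternatives are named in the closing section.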

Additional observations from a re-analysis of the deposited data

Results flagged for a closer look

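The salt response differed between SvGRP and wild type by a test of the difference itself for 2402 genes. Among the named genes, the difference (log2, SvGRP minus wild type, called with and without slide) was 3.52 for CYP712A1, 3.41 for SIB1, 2.76 for ACD6, 2.64 for WRKY70, 2.42 for PBP1, 2.28 for ERF104 and 2.00 for COR27. It was -2.80 for XTH13, -2.72 for PGL5, -2.24 for SLAH4, -1.68 for LDOX, -1.67 for AGP6, -1.51 for MYB50, -1.22 for JAZ6, -0.97 for XTH17 and -0.83 for GAMMA-TIP. Slide and genotype overlap in the design, and the part of slide in these differences beyond the fit with slide was not tested.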

How the results depend on the processing

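The count of genes called for salt in SvGRP was 18442 and fell to 5367 at a threshold of 2-fold; leaving out each array gave 16757 to 18624, slide as a fixed or random block 14505 or 19614, the replicate block 17692 and E1A scaling 16070. The count for the difference between genotypes was 2402 and moved most: 138 with slide as a fixed block, 7384 as a random block, 1215 with the replicate block and 880 at 2-fold, with 851 to 3655 when an array was left out (lowest without the first SvGRP control array, highest without the first SvGRP salt array). It was 987 without the second wild type salt array, 996 without the second SvGRP control array, 1376 and 1422 without the second and the third wild type control array, and 1472 without the second SvGRP salt array. Its split of positive and negative calls, 675 and 1727, was 1115 and 1296 under median scaling, 934 and 1162 under quantile normalization and 170 and 1726 under E1A scaling. With slide as a random block the estimated correlation within a slide was -0.165. A shift shared by the arrays of a slide would make that value positive, so the counts 19614 and 7384 do not take such a shift out. The labels do not pair the samples by replicate number. Of 315 named genes, the direction turned for AGP6 (0.020) and GRP7 (0.046) with slide as a fixed block, for GRP7 under quantile normalization (0.29), and under E1A scaling for GRP7 (0.23), CLC-C (0.074), CRT3 (0.11), GRP2 (0.0081) and PEX4 (0.092); 31 calls were lost with the fixed slide block, 25 under E1A scaling and 4 with the replicate block. The medians of 10 lists changed sign under E1A scaling, 2 under quantile normalization and 1 with slide. The cause of these shifts was not tested. Background correction by normexp could not be run on files that hold processed signals alone. Dim probes, known by percentile only, limit the fold changes of genes near it.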
